A study of Mus musculus with 2 samples.

Results

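The kidney libraries held 269 clusters of neighbouring distal accessible sites, made up of 1906 of the 79971 distal peaks that were shared between 2 mice (2.38%). Members were chosen from the peak positions of replicate 1. A peak of its longer, looser list was kept where a peak of replicate 2 overlapped it by at least 1 bp and where its midpoint lay more than 1 kb from every transcription start site (TSS) of the GENCODE M21 basic annotation. Peaks whose midpoints were 3 kb or less apart were chained, chains of 6 or more were kept as clusters, and clusters were ranked by the sum of their peak heights in replicate 1. The ranking and the spacing are therefore not findings and carry no test. The other 78065 shared distal peaks, in chains of 5 or fewer or alone, serve as the comparison and are called peaks outside clusters.

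The material was kidney from male mice of the strain B6CASTF1/J, which is the F1 of C57BL/6J with CAST/EiJ, taken 25 days after birth. DNase-seq sequences the ends left where the enzyme DNase I cuts accessible DNA in nuclei. The series has 1 group with 2 libraries and no treated or control group; the labels give the libraries different biosamples and animal numbers but the same donor code. They are taken here as 2 mice from those numbers, which the donor code does not settle. Replicate 1 had 125393 peaks and replicate 2 had 177001 peaks on the looser list, and the number of reads behind them is unknown. Peak height is the authors' signal value and has no unit. Of 18 genes that mark kidney cell types, 15 had a promoter peak in both libraries, while 0 of 9 genes that mark leukocytes, red cells, liver, adrenal, neurons and muscle had one in both and 3 had one in replicate 2 alone.

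Distal accessible sites include enhancers, stretches of DNA to which transcription factors bind and from which they act on promoters along the same chromosome. Several such sites in a short stretch form a clustered regulatory region, and genes for transcription factors are often flanked by them. In the kidney, factors such as HNF1 and HNF4 act in tubule cells, and many other factors act in several cell types at once. Whole tissue cannot tell apart a site open in few cells from one that is weakly open in many.

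Sequences of 9 peaks follow, chosen after their values were seen, because the accounts below turn on them. All were read from the RefSeq copy of GRCm38.p6, the assembly behind mm10. They are the reference sequence and not that of the hybrid mice. The first 4 are peaks in the clusters nearest to Slc3a1, Glis2 and Arntl that held the HNF1 letters GTTAATNAT or the HNF4 letters CAAAGTCCA near the midpoint on either strand, and the match is in capitals.
Slc3a1 cluster peak 1, chr17:85041001-85041220, plus strand: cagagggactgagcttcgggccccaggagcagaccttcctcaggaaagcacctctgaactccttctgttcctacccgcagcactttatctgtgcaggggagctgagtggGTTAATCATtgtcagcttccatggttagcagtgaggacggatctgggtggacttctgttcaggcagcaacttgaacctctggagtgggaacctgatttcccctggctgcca
Slc3a1 cluster peak 3, chr17:85043501-85043800, plus strand: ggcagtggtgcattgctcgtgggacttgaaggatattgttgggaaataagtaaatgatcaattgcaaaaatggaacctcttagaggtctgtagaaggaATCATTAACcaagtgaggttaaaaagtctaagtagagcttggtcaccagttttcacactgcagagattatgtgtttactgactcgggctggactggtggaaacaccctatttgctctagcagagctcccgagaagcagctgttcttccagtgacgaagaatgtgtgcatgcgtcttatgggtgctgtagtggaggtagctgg
Glis2 cluster peak 2, chr16:4602341-4602520, plus strand: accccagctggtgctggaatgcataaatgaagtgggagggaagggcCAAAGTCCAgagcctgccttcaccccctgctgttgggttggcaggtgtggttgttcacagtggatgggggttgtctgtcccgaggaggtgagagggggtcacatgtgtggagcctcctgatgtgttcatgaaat
Arntl cluster peak 4, chr7:113253841-113254020, plus strand: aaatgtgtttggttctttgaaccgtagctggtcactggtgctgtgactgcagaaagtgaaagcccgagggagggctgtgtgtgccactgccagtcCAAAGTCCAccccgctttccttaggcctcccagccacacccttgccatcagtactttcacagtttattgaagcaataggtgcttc

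The next 3 are the highest peaks with a transfer RNA (tRNA) gene in the clusters nearest to Tmpo, Aurkb and Hfe2, with the tRNA gene in capitals. They show that some high distal peaks lie on genes that RNA polymerase III transcribes.
Tmpo cluster peak 3, tRNA-Asp on the minus strand, chr10:91182061-91182220, plus strand: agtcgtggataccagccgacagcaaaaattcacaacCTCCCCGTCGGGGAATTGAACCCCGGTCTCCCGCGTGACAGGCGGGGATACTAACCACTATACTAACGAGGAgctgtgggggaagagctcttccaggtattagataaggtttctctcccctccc
Aurkb cluster peak 6, tRNA-Asp on the plus strand, chr11:69040921-69041100, plus strand: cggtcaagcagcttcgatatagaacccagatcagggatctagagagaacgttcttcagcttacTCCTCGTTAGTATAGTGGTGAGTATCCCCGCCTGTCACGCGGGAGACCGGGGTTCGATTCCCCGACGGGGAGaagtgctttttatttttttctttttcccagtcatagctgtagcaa
Hfe2 cluster peak 5, tRNA-His on the minus strand, chr3:96500341-96500520, plus strand: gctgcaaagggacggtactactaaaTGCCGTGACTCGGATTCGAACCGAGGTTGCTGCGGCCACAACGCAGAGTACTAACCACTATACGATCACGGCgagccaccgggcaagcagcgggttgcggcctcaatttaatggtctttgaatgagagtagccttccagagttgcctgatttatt

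The last pair are the highest peaks of the clusters nearest to Zfp503 and Msl1, with CpG dinucleotides in capitals. They show how unlike the sequences of high clustered peaks can be, with 22 CpGs in 260 bp of the first and 1 in 160 bp of the other. The first lay within 1 kb of a RefSeq TSS and the other did not, so the pair do not compare like sites.
Zfp503 cluster peak 12, chr14:21987821-21988080, plus strand: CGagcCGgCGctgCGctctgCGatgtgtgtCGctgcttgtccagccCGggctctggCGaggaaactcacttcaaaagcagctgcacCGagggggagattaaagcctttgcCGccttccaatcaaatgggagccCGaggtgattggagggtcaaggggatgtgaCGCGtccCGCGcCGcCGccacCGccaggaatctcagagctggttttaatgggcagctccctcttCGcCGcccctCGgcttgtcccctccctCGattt
Msl1 cluster peak 4, chr11:98786641-98786800, plus strand: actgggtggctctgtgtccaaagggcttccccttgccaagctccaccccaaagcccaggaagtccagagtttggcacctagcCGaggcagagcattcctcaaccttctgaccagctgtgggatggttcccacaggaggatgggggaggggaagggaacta

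Clusters were small and compact. Of the 269, 138 had 6 peaks and the rest had 7 to 18. A cluster spanned a median of 6597 bp, with a lowest of 2706 bp and a highest of 16434 bp, and the median gap between neighbouring midpoints was 842.5 bp. The 138 chains of 6 peaks just inside the threshold had a median summed height of 10.2 and a highest of 53.8, while the 372 chains of 5 peaks just outside had a median of 8.17 and a highest of 38.0. The longest gap inside a cluster was 3000 bp and the shortest to a peak left outside was 3005 bp, and 22 clusters held a gap over 2900 bp. Of the clustered peaks, 36 overlapped another peak of the same list, and 4 clusters would fall below 6 peaks if such pairs were merged.

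**Figure D1:**
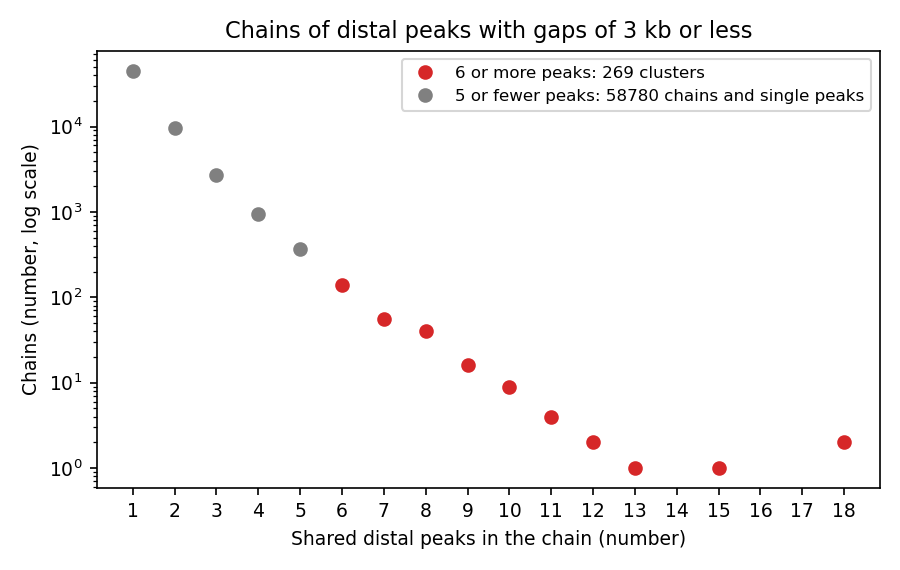
Number of chains (y axis, log scale) by the number of shared distal peaks they hold (x axis), with the 269 clusters in red and chains of 5 or fewer peaks in grey. The counts drop from 372 chains of 5 peaks to 138 of 6, and 2 chains hold 18 peaks.

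Clusters that were high in one library were mostly high in the other. The summed height of a cluster had a median of 12.96 in replicate 1, with a range of 2.80 to 68.0, and a median of 14.59 in replicate 2, with a range of 3.07 to 63.6. Over the 269 clusters, log2 sums of the libraries had Pearson's r of 0.958 and Spearman's rho of 0.957. Clusters are not independent replicates, and the correlation describes this pair of libraries only. Members had to overlap a replicate 2 peak, and both sums grow with the number of peaks, so part of the agreement is built in. By peak, Pearson's r of log2 heights was 0.937 in clusters and 0.923 outside them. The log2 ratio of replicate 2 to replicate 1 had a median of 0.18 (SD 0.26 across clusters), 212 clusters had the larger sum in replicate 2, and all 269 ratios lay within 1 of the median. Counted by peak, this ratio had a median of 0.135 in clustered peaks and 0.253 in peaks outside clusters. Larger values in replicate 2 are therefore not particular to clusters. In 42 clusters a single peak gave over 50% of the summed height of replicate 1, and the median share of the highest peak was 34.0%.

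**Figure D2:**
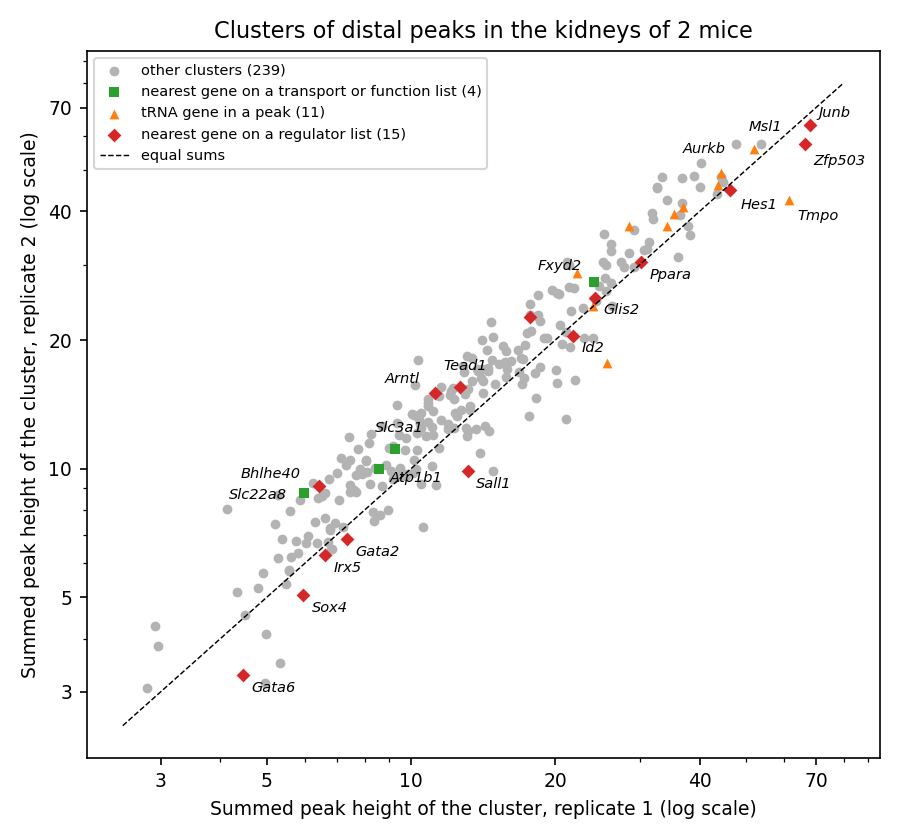
Summed peak height of each of the 269 clusters in replicate 1 (x axis) and replicate 2 (y axis), both on log scales, with clusters nearest to a regulator gene, nearest to a transport or function gene, or holding a tRNA gene marked. Points run along the dashed line of equal sums, and the Junb cluster (68.0 and 63.6) lies at the top while the Gata6 cluster (4.46 and 3.29) lies near the bottom.

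The nearest genes of the 10 highest clusters were, in order, Junb, Zfp503, Tmpo, Msl1, Aurkb, Ptma, Hes1, Kdm6b, Hfe2 and Tnrc18. Of these, 7 were also among the 10 highest by the replicate 2 sums, and 5 were among the 10 highest by mean height per peak. The Tmpo cluster ranked 3 in replicate 1 (sum 61.6) and 19 in replicate 2 (42.6), and that of Hes1 ranked 7 and 17. Junb, Zfp503 and Hes1 encode transcriptional regulators on the kidney regulator lists, and Kdm6b encodes a histone H3 lysine 27 demethylase. Nearest is a statement about distance, measured from the middle of a cluster to the closest TSS of a protein-coding gene, and does not name a target.

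The highest cluster surrounded Junb, which encodes a subunit of the AP-1 factor and is switched on early after stimulation. Its 11 peaks at chr8:84974321-84986000 summed to 68.0 in replicate 1 and 63.6 in replicate 2, and its middle lay 1.44 kb upstream of the Junb TSS, which falls inside the span. The 5 highest peaks had heights of 12.3, 11.2, 10.9, 10.7 and 10.4 in replicate 1, and the others stayed between 1.23 and 2.97. In replicate 2 the same peaks had heights of 12.7, 13.8, 15.9, 10.9 and 10.9. The last pair overlap each other and match a single peak of replicate 2, which its sum counts once. With such pairs reduced to the higher peak, the sum of replicate 1 was 57.6 and the Junb cluster ranked 3 in that library, behind those of Zfp503 (63.8) and Tmpo (61.6).

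The Zfp503 cluster had 18 peaks at chr14:21981541-21995760, summing to 66.4 in replicate 1 and 57.6 in replicate 2. Zfp503 encodes a zinc finger protein that acts mainly as a repressor in development. Its TSS and that of the noncoding gene C130012C08Rik lie inside the span. Peak 12, printed above, was the highest, at 16.8 in replicate 1 and 13.8 in replicate 2, and it lay in an exon. Peaks 12 and 13 lay within 1 kb of a RefSeq TSS, so that they are distal only by the basic annotation. Peaks 13, 18 and 1 followed with heights of 9.25, 8.85 and 6.50 in replicate 1 and 10.7, 6.63 and 7.08 in replicate 2. The rest were lower, from 0.410 to 5.72 in replicate 1, so that a few tall sites stood among many short ones in both mice.

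The Hes1 cluster held 10 peaks at chr16:30057102-30070700, with sums of 46.4 in replicate 1 and 44.9 in replicate 2. Hes1 encodes a repressor of the basic helix-loop-helix class and is a target of Notch signalling, which shapes nephron segments. The highest peaks had heights of 12.4, 9.99 and 8.45 in replicate 1, and 13.2, 8.07 and 4.30 in replicate 2. The last of these, in an exon of Hes1, differed most between the mice. The Hes1 TSS lies inside the span, and 1 promoter peak of replicate 1 stood among the distal ones. A RefSeq TSS lay within 1 kb of 3 of its 10 peaks, and of 4 of the 7 peaks of the Tmpo cluster.

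**Figure D3:**
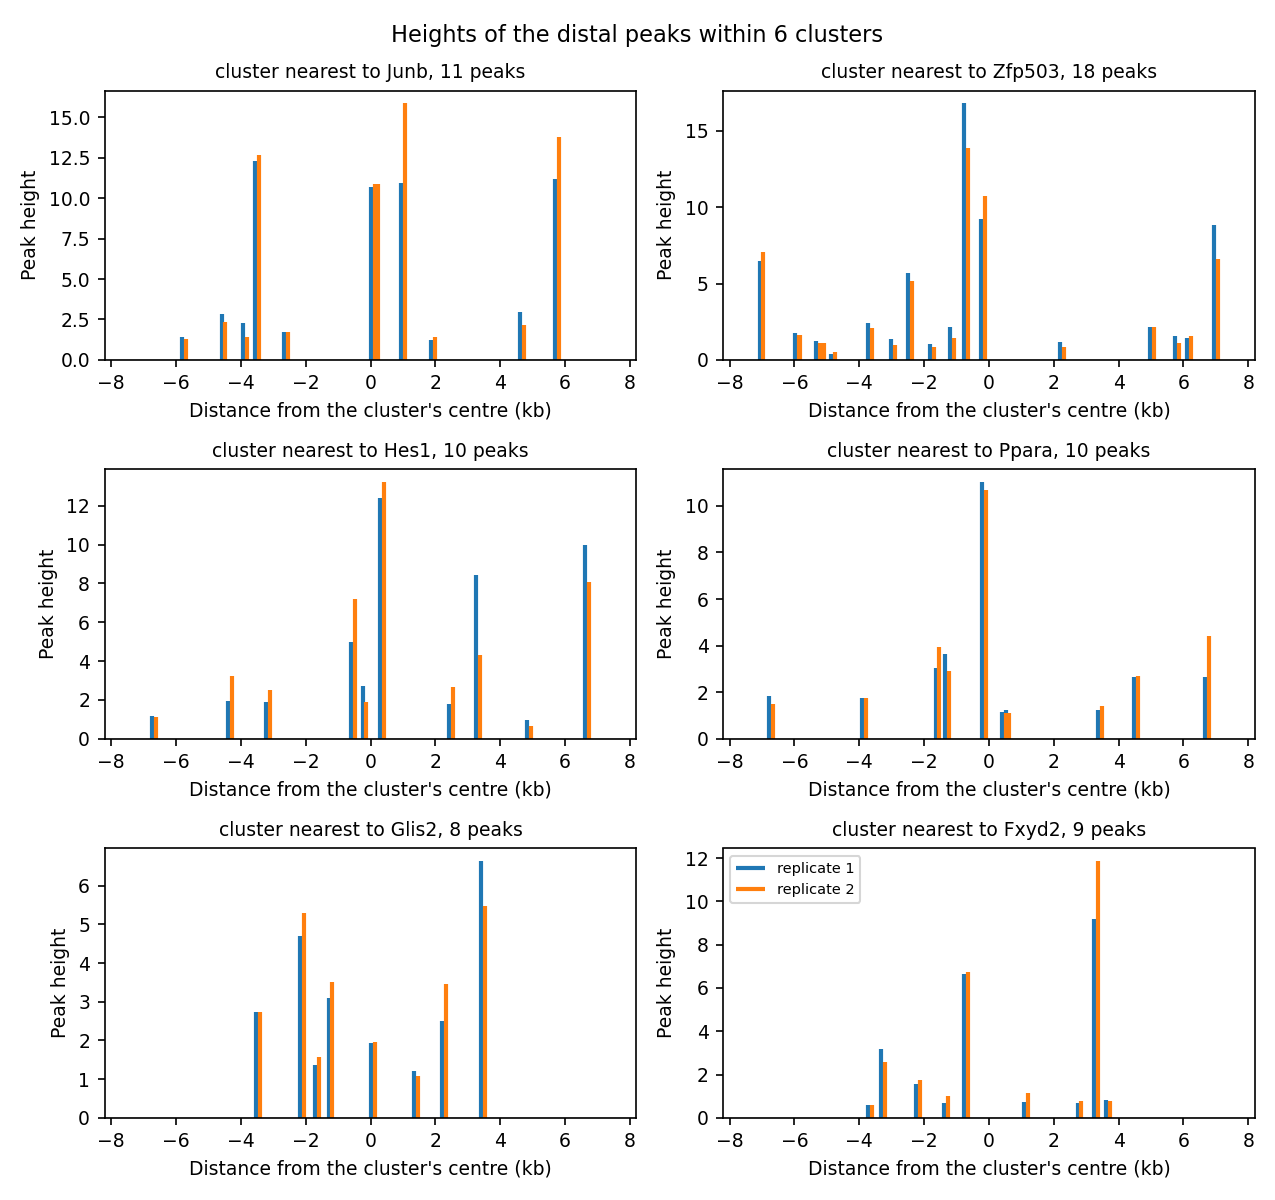
Peak height (y axis) against the distance of the peak from the cluster's centre in kb (x axis) for 6 clusters, with replicate 1 in blue beside replicate 2 in orange. Heights of replicate 2 are those of the overlapping peak, drawn at the place of the replicate 1 peak as the rule fixes it. In each cluster tall peaks stand among short ones, as in the Fxyd2 cluster, where the tallest reaches 9.20 and 11.9.

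Msl1, Ptma, Kdm6b and Tnrc18 are on none of the kidney gene lists. The Msl1 cluster, 9.81 kb upstream of a gene for a subunit of a histone acetyltransferase complex, held 6 peaks with sums of 53.8 and 57.6 in replicates 1 and 2, at chr11:98782291-98789140. Its first pair of peaks were nearer to Nr1d1, which encodes the circadian repressor REV-ERBα, than to Msl1. The Ptma cluster, at chr1:86497461-86505199 and 25.4 kb upstream of the gene for prothymosin alpha, had 9 peaks with sums of 47.7 and 57.5. Kdm6b had a cluster of 6 peaks upstream, with sums of 44.7 and 46.9, and a further cluster of 7 peaks inside the gene, with sums of 33.4 and 48.1. A RefSeq TSS lay within 1 kb of all 6 peaks of the first and of 6 of the 7 peaks of the second, so that distal holds for them only by the basic annotation. The Tnrc18 cluster at chr5:142812001-142826020 had 18 peaks, as many as that of Zfp503, but its sums were only 44.3 and 48.3. Its highest peak reached 9.30 in replicate 1 and 10.7 in replicate 2. Peaks 1, 7 to 11 and 14 to 17 of the Tnrc18 cluster lay within 1 kb of a RefSeq TSS. Both counts of 18 include peaks that overlap each other. With such peaks reduced to the highest, the Zfp503 cluster had 16, and the Tnrc18 cluster was no longer among the 10 highest.

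A sum is taken over the peaks of a cluster, so its rise with their number is built in and is not a finding. The median sum in replicate 1 was 10.2 for clusters of 6 peaks, 15.7 for 8, 15.9 for 9 and 30.2 for 10. After the pair with 18 peaks came the Usp2 cluster with 15, which ranked 29 with sums of 32.0 in replicate 1 and 38.4 in replicate 2 and lay over the Usp2 gene for a ubiquitin-specific protease. A cluster of 13 peaks covered the 5′ part of Bcl6, which encodes a transcriptional repressor of the zinc finger class, with sums of 40.3 and 51.8. The annotated gene Gm37419 has the closer TSS there. Clusters of 12 peaks lay in Lama5, the gene for the laminin α5 chain of the glomerular basement membrane (29.2 and 29.7), which is on none of the lists, and 28.9 kb from the olfactory receptor gene Olfr1423 (36.9 and 41.0). The last of these held 6 peaks with tRNA genes.

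Regulator genes were the nearest gene of 15 of the 269 clusters (5.58%, exact 95% binomial interval 3.15 to 9.03), against 2.98% of the peaks outside clusters, and 0.698% of 21911 protein-coding genes were on these lists. The lists named 153 regulators of 5 kinds and were drawn up with earlier results of these data known. Of these 153 genes, 15 were nearest to a cluster (9.80%), against 1.17% of all protein-coding genes. That share is the background for the counts by list given below, and 1 of the 15 genes is on more than 1 list. Counted by peak, 6.98% of the clustered peaks had such a gene as the nearest, against 2.98% of peaks outside, a difference of 4.002 percentage points (95% interval 2.94 to 5.24). Peaks of a cluster share their nearest gene and are not independent, so the interval by peak is too narrow. Peaks were also sorted into 5 classes of replicate 1 height, from class 1 (lowest) to class 5, each with about as many shared distal peaks. In class 5 the shares were 8.31% in clusters and 2.78% outside, and in class 3 they were 4.49% and 3.19%, with an interval of the difference from -0.32 to 3.73. The 256 distinct nearest genes included 13 that were nearest to 2 clusters and 0 nearest to 3 or more.

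Among regulators of nephron formation and differentiation, 5 of 36 listed genes were the nearest gene of a cluster, among them Glis2, Sall1, Irx5 and Sox4. Glis2, which encodes a zinc finger factor needed to keep kidney tissue intact in mouse and human, had 8 peaks within its introns at chr16:4600961-4608100, with sums of 24.2 in replicate 1 and 25.1 in replicate 2. Peak 2, at 4.69 in replicate 1 and 5.30 in replicate 2, held the HNF4 letters, and a footprint (a short stretch cut less than its surroundings) covered all 9 of them in both libraries. The tallest was peak 8, at 6.63 in replicate 1 and 5.48 in replicate 2. Sall1 encodes a zinc finger factor of nephron progenitors, and its cluster of 6 peaks had sums of 13.1 and 9.87, of which peak 4 gave 5.20 and 3.32. All but 1 of its 6 peaks were lower in replicate 2, while most clusters were higher there.

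Irx5 and Sox4 stood by low clusters. Irx5, a homeodomain factor gene, had 8 peaks with sums of 6.61 in replicate 1 and 6.27 in replicate 2, and 7 of them were under 1 in replicate 1. The Sox4 cluster, over the gene of a factor of early nephron formation, had 6 peaks with sums of 5.96 and 5.06, of which one pair overlap each other. With that pair merged it had 5 peaks and was no longer a cluster, and the share of clusters nearest to a regulator gene was 5.28% of 265. Both ranked among the lower clusters, at 233 and 245.

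Proximal tubule regulators were represented by 2 of 27 listed genes, among them Ppara. Ppara encodes a nuclear receptor that drives fatty acid oxidation, the main energy source of proximal tubule cells. Its cluster at chr15:85664521-85678160 lay 64.2 kb upstream, within the noncoding gene Lncppara, and its 10 peaks summed to 30.2 in replicate 1 and 30.4 in replicate 2. Peak 5 stood out at 11.01 in replicate 1 and 10.7 in replicate 2, and the others ranged from 1.15 to 3.62 in replicate 1.

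Regulators of the distal nephron and collecting duct were likewise 2 of 27, Zfp503 and Gata2. Gata2 encodes a zinc finger factor of the collecting duct and of endothelium. Its 6 peaks had heights of 0.761, 0.906, 1.68, 1.60, 0.650 and 1.76 in replicate 1, and of 0.676, 0.830, 2.02, 1.08, 0.840 and 1.39 in replicate 2, which puts no peak above the others in both mice. Peak 3 held the GATA letters AGATAA. Of 31 regulators of stroma and endothelium, Tead1 and Gata6 were the nearest gene of a cluster. Tead1, the gene of a factor that acts with the YAP coactivator, had 8 intronic peaks 68.7 kb from its TSS, with sums of 12.7 and 15.5. Gata6 had the lowest cluster of any listed gene, with 8 peaks and sums of 4.46 in replicate 1 and 3.29 in replicate 2.

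The list of response and clock factors contributed 5 of 33 genes, Junb, Hes1, Id2, Arntl and Bhlhe40. Id2 encodes a helix-loop-helix protein that holds back other factors, and its 8 peaks summed to 21.8 in replicate 1 and 20.5 in replicate 2, with 11.1 and 9.71 in peak 1 alone. Arntl encodes BMAL1, a core factor of the circadian clock. Its 8 intronic peaks had sums of 11.2 and 15.0, and 7 of them were higher in replicate 2. A footprint touched the HNF4 letters of its peak 4 over 5 bases in replicate 1 and over all 9 in replicate 2. The cluster assigned to Bhlhe40, a clock-linked repressor gene, lay 215 kb from its TSS inside an intron of Itpr1, and its sums were 6.44 and 9.09.

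Genes of transport and other kidney functions were nearest to 4 of the 269 clusters (1.49%, exact 95% binomial interval 0.407 to 3.76), against 1.24% of peaks outside clusters, and 0.575% of protein-coding genes were on these lists. All 4 encode transport proteins, and 0 of 25 collecting duct genes and 0 of 34 genes of glomerulus, vessels and stroma were the nearest gene of a cluster. The exact 95% intervals of those shares reach 13.7% and 10.3%, so that lists of this length cannot tell 0 from the 1.17% of all protein-coding genes. The Fxyd2 cluster, at the gene for the γ subunit of the sodium pump Na,K-ATPase, held 9 peaks at chr9:45405488-45413020 with sums of 24.1 in replicate 1 and 27.3 in replicate 2. Peaks 8 and 5 had heights of 9.20 and 6.64 in replicate 1 and of 11.9 and 6.75 in replicate 2, and the next was at 3.17 and 2.59. Atp1b1, which encodes a β subunit of the same pump, had a cluster 43.4 kb away within an intron of Nme7, with sums of 8.58 and 9.96.

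In the proximal tubule, Slc3a1 encodes a subunit of the cystine transporter, and its 6 intronic peaks had heights of 2.20, 2.30, 1.05, 2.25, 0.718 and 0.752 in replicate 1. In replicate 2 they were 2.62, 2.62, 1.22, 3.18, 0.636 and 0.840, again with peaks 1, 2 and 4 as the tall ones. Peaks 1 and 3 held the HNF1 letters. A footprint touched those of peak 1 over 4 bases in replicate 1 and over all 9 in replicate 2, while 0 footprints touched those of peak 3 in either library. Slc22a8, the gene of organic anion transporter 3, had 6 peaks 21.6 kb upstream with sums of 5.97 and 8.78. On the authors' stricter peak list, 0 of these 6 had an entry with identical start and end in replicate 1. For the overlapping peaks of replicate 2 the count was 6. A site listed with other edges was not counted.

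Transfer RNA genes lay in the peaks of 11 clusters, among them 3 of the 10 highest. This was looked at after the values were seen, because RefSeq lists tRNA genes while the TSS annotation used by the rule has none. A tRNA gene overlapped 45 of 1906 clustered peaks (2.36%), against 0.14% of peaks outside clusters, a ratio of 16.9 (95% interval 11.98 to 23.9). The 45 peaks came from only 11 clusters and are not independent, so this interval is too narrow. The rule also selects closely spaced peaks, and the Olfr1423 cluster alone held 8 tRNA genes and the Aurkb cluster 7. How much of the ratio comes from tRNA genes lying side by side was not tested. In height class 5 the shares were 6.78% in clusters and 0.514% outside. Near-identical tRNA copies share short reads, and no source used here states how the authors placed such reads, so the height of each tRNA peak is uncertain. The tRNA-Asp genes printed above, from chromosomes 10 and 11, differ in 2 of 72 bases.

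Peaks with a tRNA gene were higher than other peaks in most of these clusters. The 45 in clusters had a median height of 5.99 in replicate 1 and 6.14 in replicate 2, and the 1861 other clustered peaks had medians of 1.25 and 1.45. The 109 peaks with a tRNA gene outside clusters had medians of 4.18 and 4.44. The Trim27 cluster went the other way by its medians, which were 2.31 in replicate 1 and 2.36 in replicate 2 for its 6 peaks with a tRNA gene. Those of its other peaks were 4.49 and 7.33, but these were only peak 3 (0.846 and 0.770) and peak 8 (8.14 and 13.9). The reversal in the Trim27 cluster thus rests on peak 8 alone. In the Aurkb cluster at chr11:69035981-69041920, 7 of 8 peaks held a tRNA gene, and their heights ran from 2.99 to 8.82 in replicate 1 and from 3.43 to 8.52 in replicate 2. Its other peak had 6.28 and 8.03, against medians of 7.40 and 7.05 for those 7. The order in the Aurkb cluster was thus also reversed in replicate 2, though not in replicate 1. Aurkb encodes a mitotic kinase, and its TSS lay 6.70 kb away. The Hfe2 cluster, 24.8 kb from the gene for hemojuvelin, a regulator of iron balance, had 5 tRNA peaks of 8 at chr3:96497441-96503360. The Tmpo cluster at chr10:91181401-91188180 had 2 tRNA peaks, yet its tallest peak, 32.7 in replicate 1 and 18.99 in replicate 2, lay between them and overlapped no annotated tRNA gene. Tmpo encodes a protein of the nuclear lamina.

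By position, 168 of the 269 cluster centres lay within a gene body (62.5%, exact 95% interval 56.4 to 68.3), of which 147 in introns and 21 in exons. Counted by peak, 62.3% of the clustered peaks and 60.9% of peaks outside lay in a gene body, a difference of 1.39 percentage points (95% interval -0.84 to 3.56). The middle of a cluster was a median of 16.7 kb from the nearest protein-coding TSS, and 100 clusters lay within 10 kb and 18 over 100 kb away. In 34 clusters the span enclosed a TSS, so that these flank a promoter on both sides. Chromosome 11 carried 40 clusters, 14.9% of all (exact 95% interval 10.8 to 19.7), and 7.40% of the shared distal peaks. It is given as the chromosome with the most clusters, and some clusters are close neighbours. The interval allows for neither. Another cluster lay within 100 kb of 51 clusters.

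Clustered peaks were more often rich in CpG. An observed over expected CpG ratio of 0.6 or more in the middle 150 bp was found in 17.9% of clustered peaks and in 7.67% of peaks outside, a difference of 10.2 percentage points (95% interval 8.55 to 12.01), and the share was higher in clusters in each of the 5 height classes. Without the 11 clusters with tRNA genes it was 16.0%. Annotation moved with it: a RefSeq TSS lay within 1 kb of 11.7% of clustered peaks, against 5.72% of peaks outside, and 87 clusters held such a peak. Starts of transcripts missing from the basic annotation can therefore lie among the clustered peaks, and their part in the CpG difference was not tested. With comprehensive GENCODE, RefSeq and tRNA starts also barred, an alternative added after the data were seen, 161 clusters remained and all of them overlapped one of the 269.

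Of 16 motifs searched, 6 had shares in clustered peaks whose ratio to the share outside clusters had an interval off 1. Peaks of a cluster are neighbours and not independent, so these intervals are too narrow. They are also not adjusted for the search of 16 motifs. The search covered both strands of the middle 150 bp, and GC content had a median of 56.0% in clustered peaks and 52.7% outside. The letters CCCCACCC of KLF factors were in 6.19% of clustered peaks and 3.99% outside (ratio 1.55, 95% interval 1.30 to 1.86), and in 5.93% of 32817 RefSeq promoters. The ETS letters CCGGAAG were in 2.68% and 1.79% (1.49, 1.13 to 1.97) and in 4.17% of promoters. The TFAP2 letters GCCNNNGGC were in 10.6% and 7.68% (1.38, 1.21 to 1.58) and in 9.14% of promoters. All 3 consist mostly of G and C, and the part of base composition was not tested.

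Lower in clusters were the CTCF letters CNAGGGGGC, in 2.05% of clustered peaks and 3.14% outside (ratio 0.652, 0.477 to 0.891), and in 1.63% of promoters. The GATA letters AGATAA were in 2.89% and 4.38% (0.659, 0.507 to 0.856) and in 5.95% of promoters. The HOX letters TTTATGG were in 0.577% and 1.35% (0.429, 0.237 to 0.776) and in 1.39% of promoters. The GATA and HOX letters consist mostly of A and T, and clustered peaks were richer in GC. Those of CTCF consist mostly of G and C. The part of base composition was not tested here either. CTCF binds at insulators and loop ends, GATA factors act in the collecting duct and endothelium, and HOX factors pattern the body axis. A match is not a bound site.

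The HNF letters of the printed peaks had ratios near 1 with wide intervals. GTTAATNAT occurred in 19 clustered peaks from 17 clusters (0.997%), against 0.972% outside (ratio 1.03, 0.652 to 1.61), and in 0.521% of promoters. CAAAGTCCA occurred in 21 peaks from 20 clusters (1.10%), against 1.00% outside (1.10, 0.714 to 1.69), and in 0.256% of promoters. These intervals leave room for a ratio up to 1.61 and 1.69. The AP-1 letters TGANTCA, which the factor of Junb binds, were in 5.35% of clustered peaks and 5.84% outside (0.917, 0.757 to 1.11), and in 4.34% of promoters. The ESRR letters TCAAGGTCA, which contain the single nuclear receptor site AGGTCA, had a ratio of 1.57 (0.902 to 2.72), with a share of 0.201% in promoters, and the single site had 0.927 (0.828 to 1.04), with 8.75%. None of the other motifs contains another of those searched, and those of TEAD, FOX, GRHL, SOX and the E-box had ratios between 0.773 and 1.09 with intervals that include 1.

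**Figure D4:**
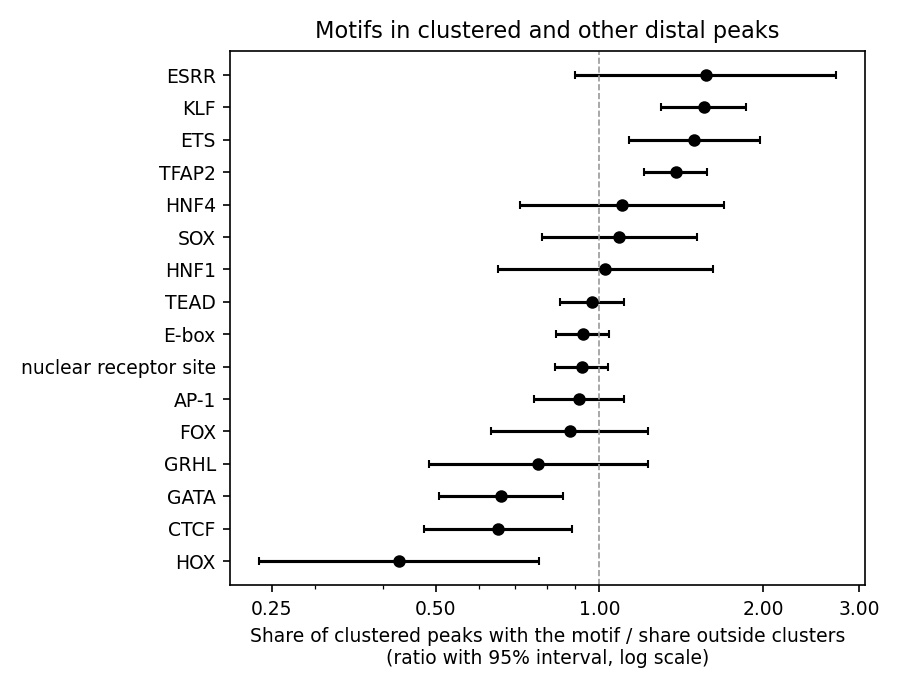
Share of clustered peaks with a motif divided by the share of distal peaks outside clusters (x axis, log scale) for 16 motifs (y axis), with 95% intervals. KLF (1.55), ETS (1.49) and TFAP2 (1.38) lie right of the dashed line at 1, and HOX (0.429), CTCF (0.652) and GATA (0.659) lie left of it.

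Footprints were not used to choose clusters, but they come from the same reads. A footprint of replicate 1 lay in 84.3% of clustered peaks and 79.4% of peaks outside, a difference of 4.90 percentage points (95% interval 3.17 to 6.49), and a footprint of replicate 2 lay in 94.1% and 95.6%, a difference of -1.52 (-2.68 to -0.54). The sign thus differed between the libraries. Clustered peaks were also higher, with median heights of 1.28 in replicate 1 and 1.48 in replicate 2, against 0.855 and 1.07 outside. Among peaks of like replicate 1 height, in height classes 2, 3 and 4, footprints were less frequent in clustered peaks in both libraries. The classes do not match peaks by replicate 2 height. Its medians were 0.979 in clusters and 1.04 outside in class 3, and 1.61 and 1.78 in class 4. The part of that difference was not tested. In class 3, 80.4% of 423 clustered peaks and 87.8% of peaks outside had a footprint of replicate 1, a difference of -7.38 (-11.5 to -3.83), and for replicate 2 the shares were 91.3% and 97.4%, a difference of -6.11 (-9.20 to -3.76). In class 1 the shares for replicate 1 were 51 of 102 clustered peaks and 41.7% of peaks outside, a difference of 8.31 with an interval from -1.25 to 17.9, and for replicate 2 they were 81.4% and 87.6% (-14.8 to 0.196). In class 5 the differences were small, at -0.634 (-1.94 to 0.0489) for replicate 1 and -0.300 (-1.19 to -0.0497) for replicate 2.

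Peaks were also matched, by identical start and end, to the authors' stricter peak list, which the rule did not use. A site listed there with other edges counted as unmatched, so the shares do not give presence on that list. In replicate 1, 868 clustered peaks and 30519 outside had a match, while the stricter lists alone gave 51446 shared distal peaks. Matches were less frequent in clustered peaks in height classes 3 and 4. In class 3, 7.57% of clustered peaks and 25.7% of peaks outside had a match in replicate 1, and 46.8% and 66.7% in replicate 2. In class 4 the shares were 47.3% and 69.2% in replicate 1, and 76.9% and 91.7% in replicate 2. Over all heights, 45.5% of clustered peaks and 39.1% of peaks outside had a match in replicate 1, and 66.5% and 63.7% in replicate 2. Bases at a false discovery rate below 0.05 filled a median of 31.3% of a cluster's span in replicate 1 and 37.2% in replicate 2.

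**Figure D5:**
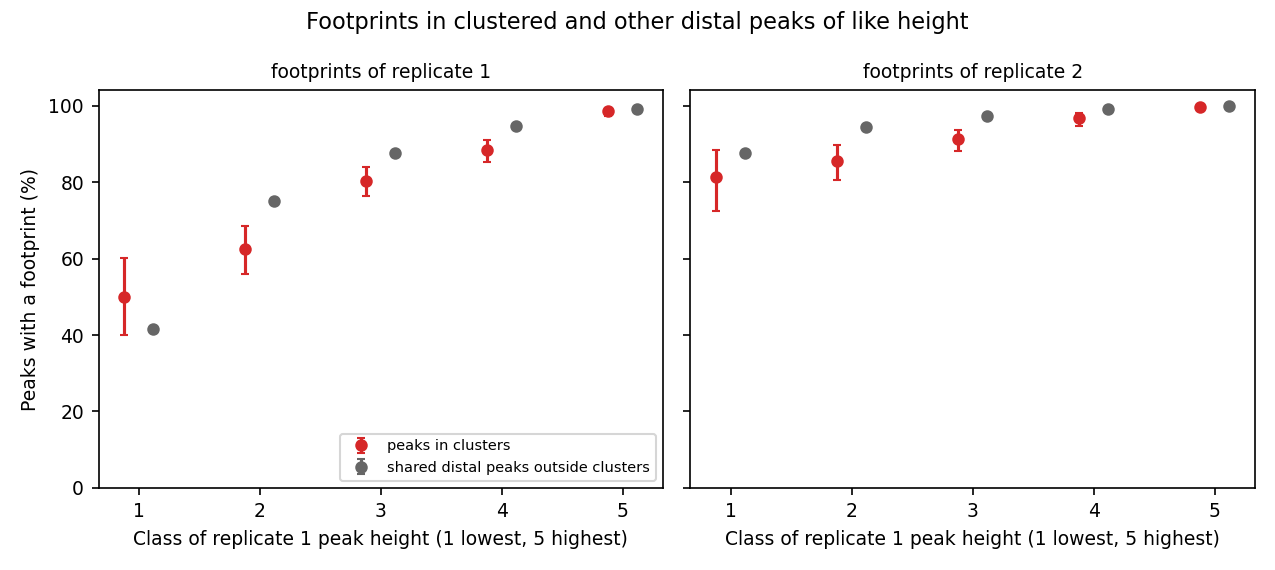
Share of peaks with a footprint (y axis, percent, with exact 95% binomial intervals) by class of replicate 1 peak height (x axis, 1 lowest to 5 highest), for clustered peaks in red and peaks outside clusters in grey, with footprints of replicate 1 in the left panel and of replicate 2 in the right. In class 3 clustered peaks stand at 80.4% and 91.3%, below the 87.8% and 97.4% of peaks outside.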

How the data were processed

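DNase-seq peaks and footprints of 2 kidney libraries were used, as deposited on mm10 per the labels. The authors' peak lists give a signal, the height of each peak, and per the file descriptions were made for each library alone. No source used here names the aligner or the callers. The footprint list deposited by the authors holds a single q-value of 0.01 in every row, read as a threshold. The deposited q-values along the genome are listed below 0.05 only. The members, the gene lists and the motifs were chosen with earlier results of these data known. The text names the nearest genes of the 10 highest clusters, of the 6 with 12 or more peaks (a tie at the last place of the 5 intended) and of clusters nearest to a listed gene, except 1 item that is not reported here, and a few others (Bcl6, Nr1d1) chosen after their values were seen.

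Chaining, overlap, distances and motif counts were computed in Python 3.11.15 with numpy 2.4.6, pandas 2.3.3, scipy 1.17.1 and pysam 0.24.0, and were tested on simulated data. Heights were not rescaled between libraries. Where several peaks of replicate 2 overlapped a peak the highest was its partner, and sums of replicate 2 count each partner once. Distance ran from the mean of the first and last midpoint to the nearest TSS of a protein-coding gene, with a negative sign upstream. Sequence, repeats, tRNA genes and promoters came from RefSeq on GRCm38.p6. Promoter peaks of marker genes lay within 500 bp of a TSS. Shares have exact (Clopper-Pearson) 95% intervals, differences Newcombe intervals and ratios log-normal intervals. They cover counting error over peaks only. Intervals by peak treat the peaks of a cluster as independent, which they are not, and so are too narrow. Depth in reads is unknown. The alternatives were other TSS sets, distances, gaps, sizes, peak lists, overlaps, height limits, rankings and windows, and each library left out. With 1 group no test between conditions was possible.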

Additional observations from a re-analysis of the deposited data

How the results depend on the processing

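The number of clusters, 269 with 1906 peaks, followed the settings that set peak density. It was 128 with 884 peaks at a gap of 2 kb, 662 with 4906 at 5 kb, 70 with 501 on the stricter lists, 160 with 1113 at 50% reciprocal overlap and 96 with 688 among the upper 50% of peaks by height. It was 641 for chains of 5 or more and 75 for chains of 8 or more. With comprehensive GENCODE, RefSeq and tRNA starts barred as well, chosen after seeing the data, it was 161 with 1100 peaks. With no overlap required, the list of replicate 1 alone gave 380 clusters with 2717 peaks, and that of replicate 2 alone, which is longer, gave 1337 with 10646.

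The share of clusters nearest to a regulator gene, 5.58%, was 9.38% among the upper 50% of peaks and 13.3% for chains of 8 or more. It was 4.64% to 6.05% without a library, and under all other settings it stayed within its interval. The difference in the share of peaks with a footprint changed sign to -2.95 percentage points on the stricter lists and to -4.78 among the upper 50% of peaks, and ran from -3.39 to 7.11 without a library. The median number of footprints per clustered peak was 2 wherever recomputed, which left out the chain sizes and the gene distances. It counts footprints of replicate 1, or of replicate 2 without replicate 1; in the 1906 peaks the median of replicate 2 was 3. The share of clusters in a gene body kept within its interval. Ranking by mean height per peak kept 5 of the 10 highest clusters and ranking by replicate 2 kept 7. Of 64 motif ratios recomputed, 61 kept their side of 1 or their lack of one. In 300 bp windows the interval of CTCF (0.815) included 1 and that of TEAD (0.900) did not, and without replicate 1 that of AP-1 (0.868) did not. The causes were not tested.

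No paired analysis was possible because both libraries belong to 1 group. Depth in reads is unknown and limits how far low peaks can be told from background.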
